A study of Mus musculus with 8 samples.

Results

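The genes described here are 49 ribosome biogenesis genes, nucleolar, ribosomal RNA processing and polymerase I genes chosen by name, and all 49 were present among the 23993 gene symbols of the expression table. Ribosome biogenesis is the assembly line on which a cell makes its ribosomes. RNA polymerase I transcribes the ribosomal RNA precursor in the nucleolus, small nucleolar ribonucleoproteins modify and cleave it, and separate sets of assembly factors build the small and the large subunit before export to the cytoplasm. The growth kinase mTORC1, which the Tsc1 and Tsc2 proteins restrain, is known to stimulate this pathway in many cells, in part through the polymerase I factors encoded by Rrn3 and Ubtf.

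The genes were measured by bulk sequencing of polyA-selected RNA from the thoracic aorta of 24-week-old male C57BL/6 mice. Both genotypes carried the mT/mG reporter and Myh11-CreERT2, an inducible Cre driven from a smooth muscle gene, and both were given tamoxifen when 1.5 weeks old. The 4 knockout libraries come from Tsc1fl/fl mice, whose Tsc1 the Cre deletes in smooth muscle, and the 4 control libraries from Tsc1+/+ mice. The labels name smooth muscle cells, but the protocol crushed whole frozen aortas and describes no sorting, so the RNA also comes from endothelium, adventitia and other cells that keep Tsc1. In such bulk samples fewer cells of a type and less RNA per cell cannot be told apart.

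Values are FPKM (fragments scaled to transcript length and library size), which are per length and can be compared between genes. Differences are knockout minus control on the scale of log2(FPKM + 1), which understates the change of low genes, with the standard error (SE). Calls come from limma's two-sided moderated test at an adjusted p (Benjamini-Hochberg) below 0.05. The test covered the 12107 genes whose mean reached 1 FPKM, and all 49 members passed that filter. Nothing in the labels says that the libraries of a group come from separate animals, so p-values measure the spread between these libraries, which may be technical.

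Tsc1 itself measured 4.03, 4.82, 4.95 and 6.32 FPKM in controls 1 to 4 against 2.99, 3.58, 3.37 and 3.71 FPKM in knockouts 1 to 4, and it fell (log2 difference -0.44, SE 0.12, adjusted p = 0.019). That call was lost among the odd-numbered (-0.39) or even-numbered libraries alone (-0.49) and without both control 2 and knockout 3 (-0.45). The relative depth of the libraries, read from their low values, ran from 0.763 to 2.45 with control 1 at 1. Defining smooth muscle markers were abundant, with summed levels of 18591 to 18958 FPKM over 10 contractile genes in controls and 12135 to 16301 FPKM in knockouts, and 7 of the 10 fell. Of 8 endothelial markers 6 fell (sums of 215.62 to 288.24 FPKM in controls and 113.65 to 177.05 FPKM in knockouts), and of 8 adventitial fibroblast markers 4 fell (1020.4 to 1362.7 and 735.49 to 1075.5 FPKM). Of 8 genes of cycling cells 4 were tested and 3 rose (41.575 to 48.098 and 58.695 to 62.27 FPKM). Of the tested markers of other cells, 3 of 4 Schwann cell and neuron genes and 1 of 6 striated muscle genes fell, and 0 of 9 macrophage, 0 of 2 lymphocyte, 0 of 6 fat cell and 0 of 4 red blood cell genes were called by limma, with 0 in these 4 lists at an unadjusted p under 0.05. No gene of these marker lists was at 0 in every library. The part of these shifts in the differences of the ribosome biogenesis genes was not tested.

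In the knockout aortas some ribosome biogenesis genes were higher, some lower and most not called. Of the 49 members 9 rose, 5 fell and 35 did not pass, so that 28.6% of them were called, against 32.2% of all tested genes. The share that rose was 18.4%, against 17.1% of all tested genes, and the share that fell was 10.2%, against 15%, so these counts lie near the background. The 9 rises became 5 without control 4 or without knockout 2, where 15.5% and 14% of all tested genes rose. The 5 falls became 3 without control 2, control 3 or knockout 1, where 12%, 12.7% and 12.9% of all tested genes fell. The median log2 difference of the members was 0.05, and that of all tested genes was 0.01. The members that rose were Rrs1, Wdr12, Heatr1, Utp20, Pes1, Utp18, Nol6, Gnl3 and Utp6, and those that fell were Myc, Bop1, Polr1c, Emg1 and Npm1. All 4 knockouts lay above all 4 controls for 10 members and below them for 6, where 18.3% and 15.6% of all tested genes had such groups.

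**Figure D1:**
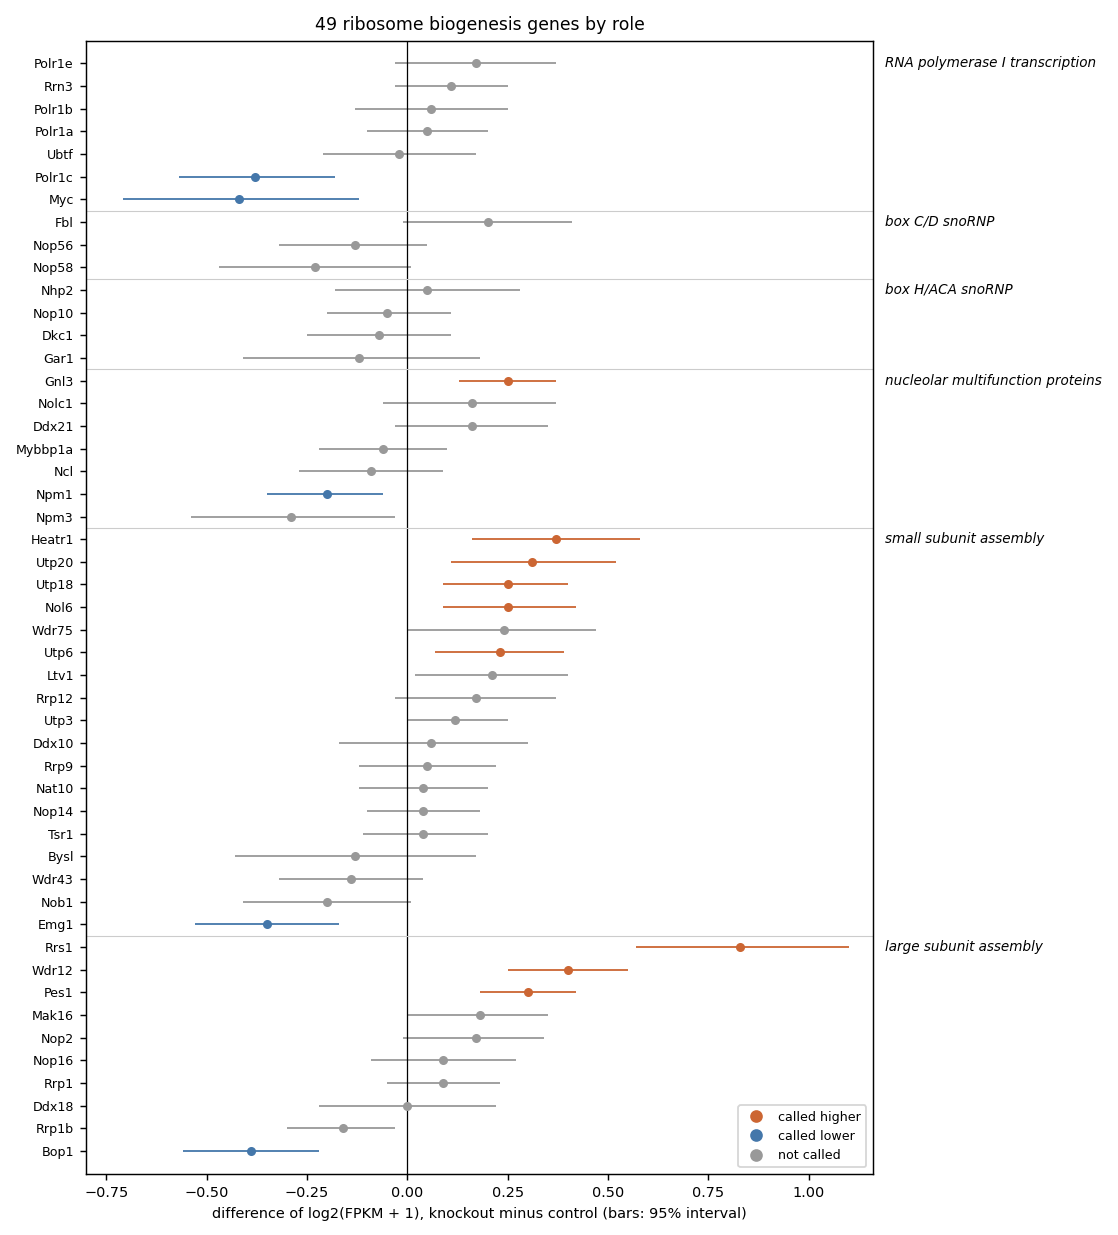
Difference of log2(FPKM + 1), knockout minus control, for the 49 genes grouped by role (horizontal axis; points are limma estimates, bars their 95% intervals; 4 libraries per group). The 9 genes called higher and 5 called lower are coloured, and Rrs1 at 0.83 lies farthest from 0.

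The mean of log2(FPKM + 1) over the members was 3.80, 3.80, 3.88 and 3.73 in controls 1 to 4 against 3.87, 3.88, 3.82 and 3.84 in knockouts 1 to 4, so the groups overlapped. Summed FPKM of the members spanned 934.95 to 1018.2 across the controls and 929.46 to 992.69 across the knockouts. Npm1 held the highest level of the set (167 FPKM over all 8 libraries), followed by Nop10 (77.5 FPKM), Rrp1 (71.5 FPKM), Ncl (40.2 FPKM) and Emg1 (39.9 FPKM). Myc held the lowest (1.59 FPKM), below Polr1e (2.63 FPKM) and Rrp12 (3.24 FPKM). The coefficient of variation of a member within a group had a median of 8.22% in controls and 7.19% in knockouts, and Myc was the most variable in both (21% and 23%).

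**Figure D2:**
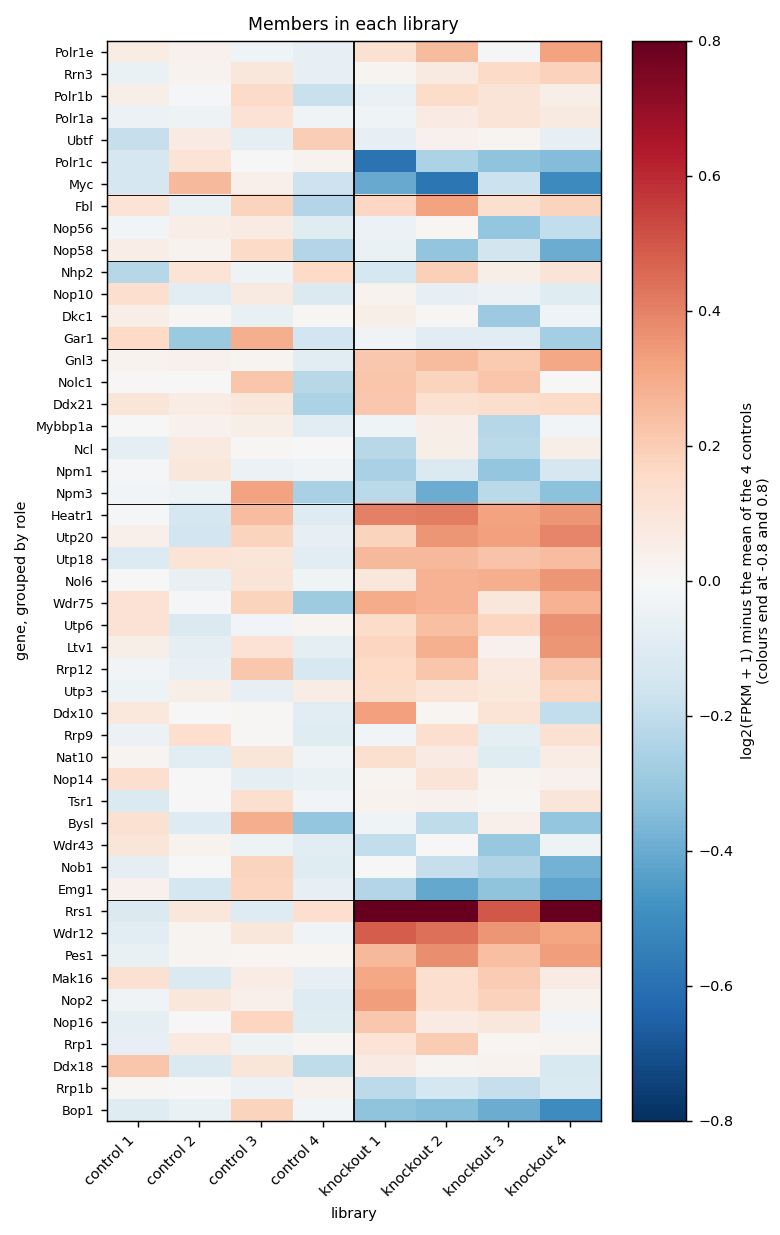
Each row is a gene, each column a library, and the colour is log2(FPKM + 1) minus the mean of the 4 controls for that gene. Rrs1, Wdr12 and Pes1 are red and Bop1 is blue in all 4 knockouts, while rows such as Ddx18 and Dkc1 show no split by genotype.

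The promoters of the members were read for the E-box CACGTG, the core site of Myc with Max and of the MiT/TFE factors. RefSeq windows on GRCm38.p6, the assembly of mm10, from 250 bases before to 50 bases after a gene start were at hand for 40 of the 49 members, and not for Myc, Fbl, Npm1, Utp6, Nol6, Rrp12, Bop1, Rrs1 and Mak16. CACGTG reads the same on both strands. It was found in 9 of the 40 genes (22.5%), against 11.9% of the 9096 tested genes with a window and 8.09% of all 27025 genes with one. The longer TCACGTGA, which contains CACGTG, was found in 0 of the 40, against 2.34% of tested genes. Within the 250 upstream bases alone the E-box shares were 7.5% of members and 10% of tested genes. In the 50 bases after the start, a window set after the data were seen, they were 15% (6 of 40) and 1.93%.

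The matches are shown as stretches of 30 bases, 5′ to 3′ on the strand of the gene, with the E-box in capitals. The genes that rose in the knockout, Pes1, Utp18 and Utp20, come first.
Pes1 (chr11:3963965-3963994, plus strand): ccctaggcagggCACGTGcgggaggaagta
Utp18 (chr11:93885769-93885798, minus strand): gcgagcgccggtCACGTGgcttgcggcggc
Utp20 (chr10:88826765-88826794, minus strand): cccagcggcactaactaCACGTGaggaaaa
Ltv1 (chr10:13193092-13193121, minus strand): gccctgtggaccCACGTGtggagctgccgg
Mybbp1a (chr11:72441347-72441376, plus strand): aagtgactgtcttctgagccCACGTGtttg
Tsr1 (chr11:74898092-74898121, plus strand): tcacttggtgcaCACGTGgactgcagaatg
Wdr43 (chr17:71616220-71616249, plus strand): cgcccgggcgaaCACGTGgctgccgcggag
Nop2 (chr6:125131811-125131840, plus strand): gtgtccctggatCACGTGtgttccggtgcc
Rrn3, distal (chr16:13780472-13780501, plus strand): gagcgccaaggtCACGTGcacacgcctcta
Rrn3, proximal (chr16:13780639-13780668, plus strand): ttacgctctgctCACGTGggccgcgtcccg

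Counted from the RefSeq gene start, the E-box began at base 3 in Pes1, 18 in Wdr43, 25 in Tsr1, 29 in Ltv1, 38 in Utp20 and 41 in Mybbp1a. It began 20 bases before that start in Utp18, 60 in Nop2, and 48 and 215 in Rrn3. The gene bounds of GENCODE M21, another annotation, place some of these starts elsewhere, such as that of Wdr43 upstream at chr17:71615895. Positions and window shares therefore hold for the RefSeq starts alone. Of these 9 genes 3 rose and 6 did not pass, with log2 differences from -0.14 (Wdr43) to 0.31 (Utp20). Of the other 31 genes with a window 5 were called, Wdr12, Heatr1 and Gnl3 higher and Polr1c and Emg1 lower. Of all tested genes 32.2% were called and 17.1% rose. Whether members with an E-box differ from those without was not tested. Of the 14 called members 8 had a window, and Rrs1, Utp6, Nol6, Bop1, Myc and Npm1 were called but could not be read. A match is a description of these letters and shows no binding. The upstream bases of Utp18, the called gene with its E-box before the start, and of Rrn3, which holds a pair of them, are shown for context, each 250 bases long and ending at the base before the gene start.
Utp18 (chr11:93885767-93886016, minus strand): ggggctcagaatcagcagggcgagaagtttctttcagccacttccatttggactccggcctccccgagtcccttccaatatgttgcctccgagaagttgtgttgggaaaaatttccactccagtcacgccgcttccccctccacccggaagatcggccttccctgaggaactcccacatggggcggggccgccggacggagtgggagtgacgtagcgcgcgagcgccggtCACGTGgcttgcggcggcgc
Rrn3 (chr16:13780449-13780698, plus strand): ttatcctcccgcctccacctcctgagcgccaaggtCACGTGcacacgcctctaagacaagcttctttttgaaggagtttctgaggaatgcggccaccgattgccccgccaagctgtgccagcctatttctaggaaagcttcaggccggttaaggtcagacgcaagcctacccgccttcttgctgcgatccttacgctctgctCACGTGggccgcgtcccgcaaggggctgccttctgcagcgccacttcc

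The recruitment of RNA polymerase I to ribosomal DNA depends on the upstream binding factor UBF and on the initiation factor TIF-IA. Ubtf, which encodes UBF, measured 21.8, 26.1, 23.5 and 28.6 FPKM in controls 1 to 4 against 23.7, 25.5, 25.3 and 23.7 FPKM in knockouts 1 to 4. The knockouts lay inside the range of the controls (log2 difference -0.02, 95% interval -0.21 to 0.17). Rrn3, which encodes TIF-IA, measured 12.5, 13.3, 13.9 and 12.4 FPKM in controls and 13.2, 13.7, 14.6 and 14.9 FPKM in knockouts, with overlapping groups (0.11, interval -0.03 to 0.25).

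The catalytic subunits of the polymerase were likewise not called. Polr1a, the largest subunit, measured 4.48, 4.49, 5.12 and 4.53 FPKM in controls and 4.52, 4.92, 5.07 and 4.93 FPKM in knockouts (log2 difference 0.05, interval -0.10 to 0.20). Polr1b, the second largest, measured 4.52, 4.28, 4.93 and 3.72 FPKM in controls and 4.14, 4.91, 4.74 and 4.52 FPKM in knockouts (0.06, interval -0.13 to 0.25). In both genes the groups overlapped, and the intervals reach no further than 0.25 in either direction. Polr1e, an accessory subunit, had a log2 difference of 0.17 and was not called (interval -0.03 to 0.37).

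Polr1c, a subunit that RNA polymerases I and III share, fell. It measured 20.3, 24.2, 22.3 and 22.8 FPKM in controls 1 to 4 against 14.5, 18.6, 17.7 and 17.4 FPKM in knockouts 1 to 4. The highest knockout lay below the lowest control (log2 difference -0.38, SE 0.09, adjusted p = 0.0103). Its call was lost among the odd-numbered libraries alone (-0.39) and without both control 2 and knockout 3 (-0.36).

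Of 14 further genes of the polymerase I machinery, 4 fell, 0 rose and 10 did not pass, with a median log2 difference of -0.11. That is 28.6% called, against 32.2% of all tested genes (15% lower). The 4 were Polr2e (-0.27), Ttf1 (-0.24), Polr1d (-0.19) and Polr2f (-0.16), which are named here after their values were seen. All 4 calls were lost by leaving out 1 library. The Polr1d call was lost without control 2 (-0.16), 3 (-0.21) or 4 (-0.18) or knockout 2 (-0.20), 3 (-0.17) or 4 (-0.17), and the Polr2e call without control 1 (-0.27), 2 (-0.25) or 3 (-0.26) or knockout 1 (-0.25), 2 (-0.28) or 4 (-0.22). The Polr2f call was lost without control 1 (-0.15), 2 (-0.16) or 4 (-0.15) or knockout 1 (-0.16), 3 (-0.14) or 4 (-0.16), and the Ttf1 call without control 1 (-0.22), control 3 (-0.24) or knockout 2 (-0.20). With scaling to equal sums 0 of the 4 passed in limma (Polr1d -0.11, Polr2e -0.20, Polr2f -0.08 and Ttf1 -0.18). Polr1d encodes another subunit shared by polymerases I and III, Polr2e and Polr2f encode subunits common to all nuclear RNA polymerases, and Ttf1 encodes the terminator of ribosomal RNA transcription.

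Myc encodes a transcription factor that drives many ribosome biogenesis genes. It measured 1.68, 2.52, 2.03 and 1.62 FPKM in controls 1 to 4 against 1.22, 0.971, 1.61 and 1.07 FPKM in knockouts 1 to 4, and fell from 1.96 ± 0.412 to 1.22 ± 0.28 FPKM (SD, n = 4; log2 difference -0.42, SE 0.13, limma adjusted p = 0.0386). The groups did not overlap, but knockout 3, the highest knockout, and control 4, the lowest control, were nearly equal. The highest Myc of each genotype lay in the library with the highest immediate early genes, which respond within minutes to handling or growth signals. Fos had 24.4 FPKM in control 2 against 4.13 to 10.1 FPKM in the other controls, and 154 FPKM in knockout 3 against 4.29 to 8.05 FPKM in the other knockouts. Egr1 (79.8 and 121 FPKM) and Jun (107 and 80.9 FPKM) were highest in the same libraries.

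Summed over 14 immediate early genes, levels spanned 267.33 to 751.73 FPKM across the controls and 227.79 to 908.53 FPKM across the knockouts. None of the 13 tested was called by limma, and 1 had an unadjusted p under 0.05. Without both of those libraries Myc had a log2 difference of -0.41 and was not called. The Myc call was also lost without control 2 (-0.33), control 3 (-0.40), knockout 1 (-0.42), knockout 2 (-0.36) or knockout 4 (-0.39), and within the odd-numbered (-0.25) or even-numbered libraries alone (-0.59). Of 11 genes of the Myc network 9 were tested, and Mxd4, which encodes an antagonist of Myc, was the gene called (0.18). That is 11.1% called, against 32.2% of all tested genes. The Mxd4 call was lost without control 1 (0.17), 2 (0.18) or 3 (0.18) or knockout 2 (0.19), 3 (0.17) or 4 (0.16). Max, the obligate partner of Myc, had a log2 difference of 0.06 and was not called (interval -0.07 to 0.19).

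**Figure D3:**
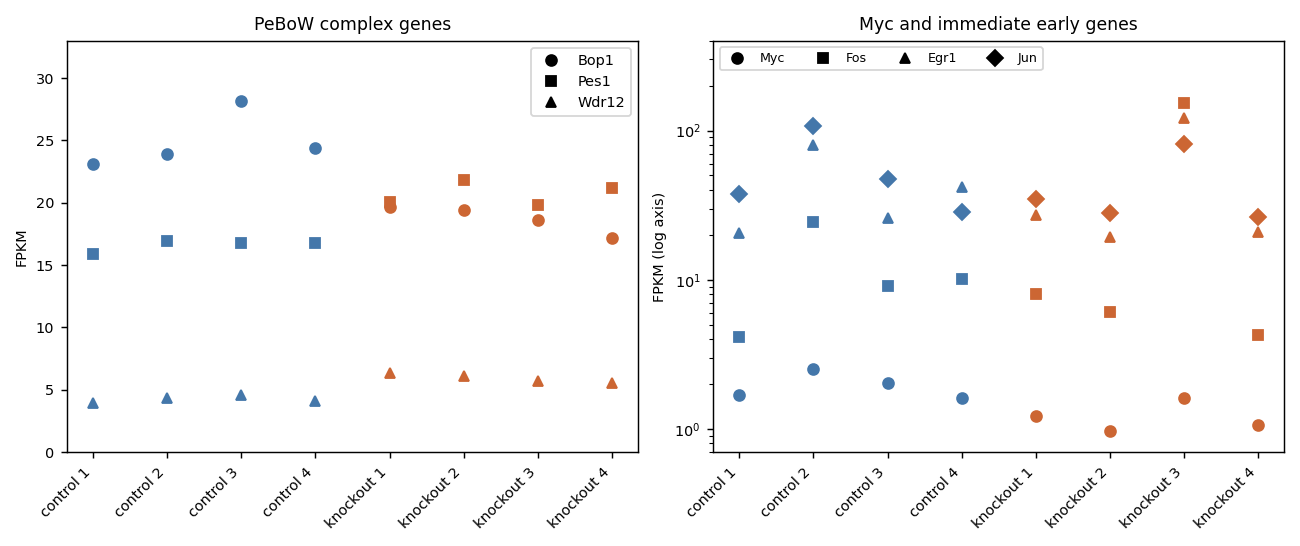
FPKM in each of the 8 libraries (blue controls, orange knockouts). On the left, on a linear axis, Bop1 is lower and Pes1 and Wdr12 are higher in every knockout than in any control (Bop1 at most 19.7 FPKM in knockouts and at least 23.1 FPKM in controls). On the right, on a log axis, Myc is highest within each genotype where Fos, Egr1 and Jun are highest (control 2 and knockout 3).

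Small nucleolar ribonucleoproteins guide the chemical modification of ribosomal RNA. In the box C/D particles, which carry out ribose methylation, 0 of 3 members were called by limma, against 32.2% of all tested genes. Of the 3, 0 had an unadjusted p under 0.05. Fbl (fibrillarin, the methyltransferase) measured 31.8, 28.4, 33.4 and 24.9 FPKM in controls 1 to 4 against 33.2, 37, 32.3 and 33.4 FPKM in knockouts 1 to 4. The groups overlapped, with control 4 lowest and knockout 2 highest (log2 difference 0.20, interval -0.01 to 0.41). Fbl was called higher among the even-numbered libraries alone (0.39, limma adjusted p = 0.036) and with scaling to equal sums (0.28), and had 0.01 among the odd-numbered ones. The core proteins Nop56 (-0.13) and Nop58 (-0.23, interval -0.47 to 0.01) had differences of the other sign and were not called. Nop58 was called lower with a term for odd or even number (-0.23, limma adjusted p = 0.032) and without control 4 (-0.31, limma adjusted p = 0.0434).

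In the box H/ACA particles, which convert uridine to pseudouridine, 0 of 4 members were called by limma, against 32.2% of all tested genes. Of the 4, 0 had an unadjusted p under 0.05. A list this short cannot be set apart from that share. Dkc1 (dyskerin, the pseudouridine synthase) had a log2 difference of -0.07, and its partners Gar1, Nop10 and Nhp2 had -0.12, -0.05 and 0.05. Gar1 had the widest interval of the particle (-0.41 to 0.18). Nor was any of 9 factors that assemble these particles called, against the same 32.2% of all tested genes. Their median log2 difference was 0.02, with 0 at an unadjusted p under 0.05.

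Among 7 abundant nucleolar proteins of several functions, Gnl3 rose, Npm1 fell and 5 did not pass. That is 28.6% called, against 32.2% of all tested genes. Gnl3 (nucleostemin, a nucleolar GTPase of proliferating cells) measured 17.7, 17.8, 17.6 and 16.3 FPKM in controls 1 to 4 against 20.3, 20.9, 20.2 and 21.7 FPKM in knockouts 1 to 4. Every knockout lay above every control (log2 difference 0.25, SE 0.05, adjusted p = 0.008). The call was lost among the odd-numbered libraries alone (0.19).

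Npm1 (nucleophosmin, a chaperone of nucleolar structure) measured 177, 190.4, 173 and 175 FPKM in controls 1 to 4 against 149, 165, 144 and 163 FPKM in knockouts 1 to 4. It fell to 0.869 times the control mean, without overlap (log2 difference -0.20, SE 0.06, adjusted p = 0.0362). The Npm1 call was lost when any control was left out (-0.22 to -0.17), without knockout 1 (-0.18) or knockout 3 (-0.17), among the even-numbered libraries (-0.15), and with quantile scaling (-0.15) or scaling to equal sums (-0.12). Ncl (nucleolin, which binds nascent ribosomal RNA) measured 39.1, 43.5, 41.5 and 41.2 FPKM in controls and 35.2, 42.7, 35.5 and 42.6 FPKM in knockouts. Knockouts 1 and 3 lay below all controls and knockouts 2 and 4 among them, and Ncl was not called (-0.09, interval -0.27 to 0.09). Npm3 (-0.29), Mybbp1a (-0.06), Nolc1 (0.16) and the helicase gene Ddx21 (0.16) were not called either. Npm3, a relative of nucleophosmin, was called lower with a term for odd or even number (-0.29, limma adjusted p = 0.0293) and without control 4 (-0.37, limma adjusted p = 0.0286).

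**Figure D4:**
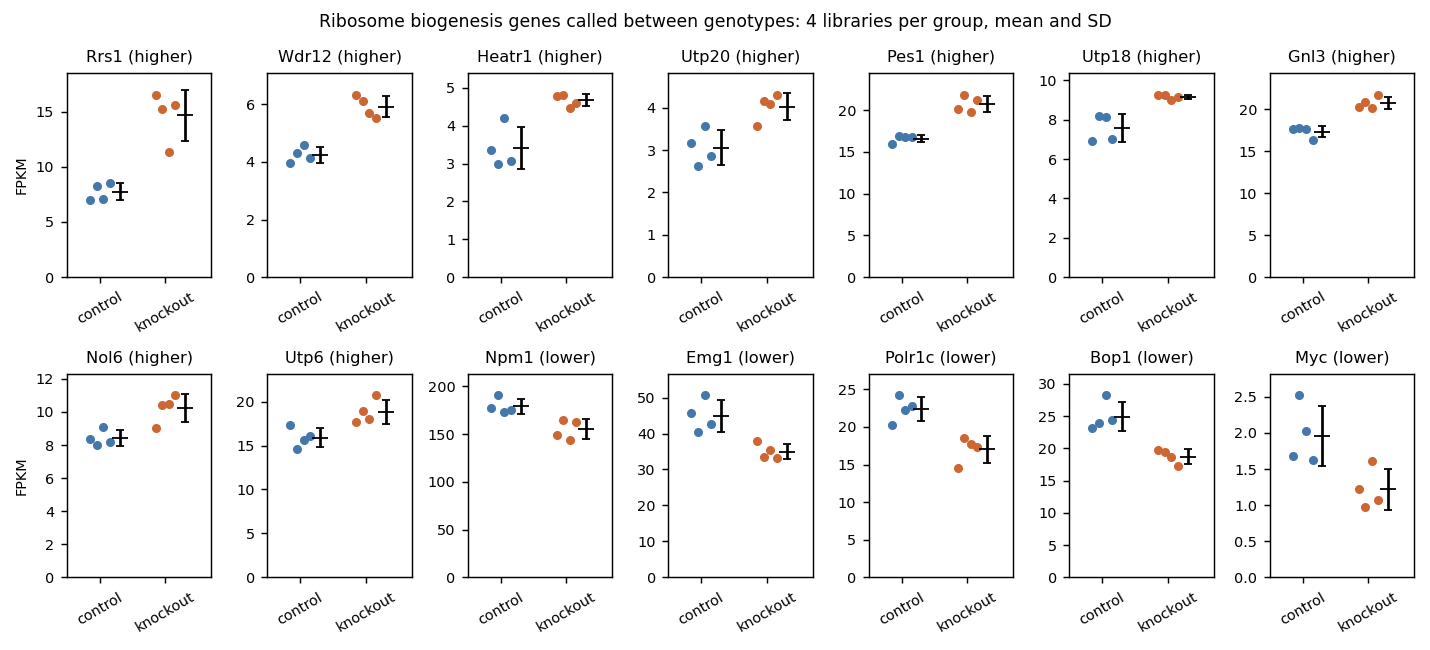
FPKM of the 14 called genes, 1 panel each with its own linear axis from 0 (points are libraries, black marks the mean and SD of 4). The groups overlap in Nol6, where knockout 1 at 9.02 FPKM lies below control 3 at 9.09 FPKM, and in no other panel.

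The small subunit processome is the large particle that folds and cleaves the part of the precursor that becomes the small subunit. Of 18 members that act in small subunit assembly, 5 rose, 1 fell and 12 did not pass, with a median log2 difference of 0.09. The share that rose was 27.8% and the share that fell 5.56%, against 17.1% and 15% of all tested genes. Heatr1, which also links the processome to polymerase I transcription, measured 3.35, 2.99, 4.21 and 3.08 FPKM in controls 1 to 4 against 4.79, 4.81, 4.47 and 4.61 FPKM in knockouts 1 to 4. Control 3 was the high control and still lay below every knockout (log2 difference 0.37, SE 0.09, adjusted p = 0.0148). Utp20, a large scaffold protein, measured 3.16, 2.63, 3.58 and 2.87 FPKM in controls and 3.58, 4.16, 4.08 and 4.3 FPKM in knockouts. Control 3 and knockout 1 were nearly equal, while the other knockouts lay above all controls (0.31, SE 0.09, adjusted p = 0.0282).

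Utp6 and Utp18 belong to the same subcomplex of the processome. Utp18 measured 6.93, 8.21, 8.13 and 7.02 FPKM in controls and 9.23, 9.25, 9 and 9.13 FPKM in knockouts, so the 4 knockouts were close together and above all controls (log2 difference 0.25, SE 0.07, adjusted p = 0.0223). Utp6 measured 17.3, 14.6, 15.6 and 16.1 FPKM in controls and 17.7, 18.9, 18 and 20.7 FPKM in knockouts. Its lowest knockout lay just above its highest control (0.23, SE 0.07, adjusted p = 0.035). Nol6, of another subcomplex, measured 8.37, 8.01, 9.09 and 8.17 FPKM in controls and 9.02, 10.4, 10.5 and 11 FPKM in knockouts, with knockout 1 inside the controls (0.25, SE 0.07, adjusted p = 0.026).

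Most of these calls were lost when some single libraries were left out, which also leaves fewer samples. Over all tested genes, leaving out 1 library took the 2074 rises to between 1686 and 1871. The Utp6, Utp20 and Nol6 calls were lost without control 2 (0.19, 0.26 and 0.23), control 4 (0.24, 0.29 and 0.24), knockout 2 (0.23, 0.30 and 0.25), knockout 3 (0.25, 0.31 and 0.24) or knockout 4 (0.19, 0.29 and 0.22). The Utp6 call was also lost without control 3 (0.22), the Nol6 call without control 1 (0.25), and the Utp18 call without control 1 (0.21), control 4 (0.22) or knockout 2 (0.24). The Heatr1 call was kept whichever single library was left out, but not without both control 2 and knockout 3 (0.34), and with a mean of at least 5 FPKM required Heatr1 and Utp20 were not tested. Among the odd-numbered libraries alone 0 of the 5 passed in limma (Heatr1 0.24, Utp20 0.14, Utp18 0.25, Utp6 0.12 and Nol6 0.14).

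Emg1, a methyltransferase of small subunit ribosomal RNA, was the member of this group that fell. It measured 45.8, 40.4, 50.6 and 42.7 FPKM in controls 1 to 4 against 37.9, 33.4, 35.5 and 33.2 FPKM in knockouts 1 to 4. Every knockout lay below every control (log2 difference -0.35, SE 0.08, adjusted p = 0.0108), and the call was kept in all 21 alternatives (-0.40 to -0.27). Emg1 shares 334 exonic bases with Lpcat3 on the opposite strand, and as the strand setting is not given in the sources used here, reads of the pair cannot be told apart there. Lpcat3 had a log2 difference of -0.08 and was not called.

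The 12 other small subunit members had log2 differences from -0.20 (Nob1, the endonuclease that finishes the small subunit RNA) to 0.24 (Wdr75, a processome subunit). Wdr75, Ltv1 (0.21) and Utp3 (0.12) had unadjusted p-values of 0.0499, 0.0311 and 0.0443 that did not pass adjustment. Wdr43, which acts in the same subcomplex as Wdr75 and Heatr1, had -0.14. The acetyltransferase gene Nat10 (0.04) and the late assembly factor genes Tsr1 (0.04), Bysl (-0.13) and Rrp12 (0.17) were not called, nor were Nop14 (0.04), Rrp9 (0.05) and Ddx10 (0.06).

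Of 39 further small subunit genes 8 rose and 0 fell, and 31 did not pass. The share that rose, which is also the share called, was 20.5%, against 17.1% of all tested genes that rose and 32.2% that were called, and the median log2 difference was 0.06. Dcaf13, a processome subunit, measured 14, 14.5, 13.6 and 13.8 FPKM in controls 1 to 4 against 20.1, 20.1, 17.1 and 18.8 FPKM in knockouts 1 to 4, without overlap (log2 difference 0.42, SE 0.06, adjusted p = 0.00147). Pno1, a late assembly factor that works with Nob1, rose from 14.9 ± 2.74 to 20 ± 1.23 FPKM (0.41, adjusted p = 0.0241 in limma). The Pno1 call was lost without control 2 (0.34), control 4 (0.36), knockout 2 (0.41) or knockout 4 (0.38), without both control 2 and knockout 3 (0.36), and among the odd-numbered libraries (0.15). Fcf1, a processome protein with a nuclease fold, rose from 36.7 ± 2.6 to 48 ± 4.62 FPKM (0.38, adjusted p = 0.00866 in limma).

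Of 10 members that act in large subunit assembly, 3 rose, 1 fell and 6 did not pass, with a median log2 difference of 0.13. That is 40% called, against 32.2% of all tested genes. The largest change of any of the 49 genes was that of Rrs1, which helps to load the ribonucleoprotein of the smallest ribosomal RNA into the large subunit. Rrs1 measured 7.03, 8.26, 7.11 and 8.55 FPKM in controls 1 to 4 against 16.5, 15.2, 11.3 and 15.6 FPKM in knockouts 1 to 4. Knockout 3 was the lowest knockout and still well above every control. The mean rose 1.9 times, from 7.74 ± 0.783 to 14.7 ± 2.33 FPKM (log2 difference 0.83, SE 0.12, limma adjusted p = 0.00104). The call was kept in all 21 alternatives (0.78 to 0.98).

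Pes1, whose promoter E-box is printed above, Bop1 and Wdr12 encode the PeBoW complex, which is needed to process the large subunit RNA and in which the 3 proteins bind each other. Their transcripts moved in opposite directions. Wdr12 measured 3.95, 4.32, 4.59 and 4.13 FPKM in controls 1 to 4 against 6.32, 6.13, 5.71 and 5.53 FPKM in knockouts 1 to 4, and rose without overlap (log2 difference 0.40, SE 0.07, adjusted p = 0.00252). Pes1 measured 15.9, 16.9, 16.8 and 16.8 FPKM in controls and 20.1, 21.8, 19.8 and 21.2 FPKM in knockouts. It also rose without overlap (0.30, SE 0.05, adjusted p = 0.00296).

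Bop1 measured 23.1, 23.9, 28.2 and 24.4 FPKM in controls and 19.7, 19.4, 18.6 and 17.2 FPKM in knockouts, and fell without overlap (log2 difference -0.39, SE 0.08, adjusted p = 0.00466). The FPKM ratio of Bop1 to Pes1 was 1.45, 1.41, 1.68 and 1.46 in controls and 0.982, 0.893, 0.936 and 0.811 in knockouts. Bop1 therefore had the higher FPKM of the pair in every control and the lower FPKM in every knockout, though nearly equal to Pes1 in knockout 1. As annotation and strandedness are not given, which transcript is more abundant is less certain than the change within each gene. The Wdr12 and Pes1 calls were kept in all 21 alternatives, and the Bop1 call was lost among the odd-numbered libraries alone (-0.40, adjusted p = 0.0506 in limma).

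Bop1 has neighbours on the opposite strand. It shares 50 exonic bases with Mroh1, which rose (0.93), and an intron of Bop1 holds Scx, the tendon transcription factor scleraxis, which shares 0 exonic bases and fell (-0.61). The Scx call was lost without control 3 (-0.55), control 4 (-0.53), knockout 2 (-0.53) or knockout 4 (-0.49), and with scaling to equal sums (-0.54). Reads of overlapping genes on opposite strands cannot be told apart without the strand setting, and the part of these neighbours in the Bop1 value was not tested. Over the whole set 15 of 49 members, 6 of them among the 14 called, share exonic bases with a protein-coding gene on the opposite strand. Beside Emg1 and Bop1 the called ones are Heatr1 (155 bases), Pes1 (138), Wdr12 (61) and Gnl3 (15), which all rose. Heatr1 shares its bases with Lgals8, which had a mean of 30.7 FPKM and was not called (0.08).

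The 6 other large subunit members, Mak16 (0.18), Nop2 (0.17), Nop16 (0.09), Rrp1 (0.09), Ddx18 (0.00) and Rrp1b (-0.16), were not called. Mak16 was called higher with a term for odd or even number (0.18, limma adjusted p = 0.0219) and with scaling to equal sums (0.25). Rrp1 and Rrp1b are paralogs, so fragments they share are uncertain. Rrp1b had 4.25 to 4.55 FPKM in controls and 3.68 to 4 FPKM in knockouts, without overlap (adjusted p = 0.0617 in limma), and it was called with a term for odd or even number, without the mean-variance trend and with quantile or median-of-ratios scaling.

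Of 44 further large subunit genes 3 rose (6.82%), 4 fell (9.09%) and 37 did not pass. That is 15.9% called, against 32.2% of all tested genes. The largest fall among all the further pathway genes was that of Gltscr2, the symbol under which the table lists a nucleolar factor now called Nop53. It measured 99.4, 131, 100.3 and 116 FPKM in controls 1 to 4 against 70, 78.1, 69.6 and 72.3 FPKM in knockouts 1 to 4, without overlap (log2 difference -0.61, SE 0.09, adjusted p = 0.00159). Nsa2, a factor of precursor large subunits, fell from 69.9 ± 4.49 to 53 ± 1.96 FPKM (-0.39, adjusted p = 0.0016 in limma). Of 13 genes of the RNA exosome and related nucleases 3 rose and 2 fell (38.5% called, against 32.2% of all tested genes). They trim the ends of ribosomal RNA. Among them Exosc5, an exosome core subunit, fell from 17.7 ± 1.69 to 12.6 ± 0.988 FPKM (-0.46, adjusted p = 0.00335 in limma). Taking all 128 tested genes of these further lists, 15 rose (11.7%) and 10 fell (7.81%), so that 19.5% were called, against 17.1%, 15% and 32.2% of all tested genes. The 15 rises became 6, 9 and 9 without control 1, 2 or 4, and 4, 7 and 8 without knockout 2, 3 or 4. They became 14 without control 3 and 12 without knockout 1. The 10 falls became 6 without control 1, 2 or 3, 5 without knockout 2, and 7 or 8 without any other library. With 1 library left out, 13.9% to 15.5% of all tested genes rose and 12% to 13.3% fell.

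The split between rises and falls moved with scaling to equal sums, and little with median-of-ratios or quantile scaling. Of the 14 members called 64.3% were higher, and of all called genes 53.3%. With median-of-ratios scaling 9 members were higher and 6 lower (60% higher, and 50.5% of all called genes). Quantile scaling gave 8 and 5 (61.5% higher, and 51.9% of all called genes). When the columns were scaled to equal sums without small RNA rows, 16 members were higher and 3 lower (84.2% higher, and 68.7% of all called genes), and the median of all tested genes moved to 0.08. In that fit 24.4% of all tested genes were higher and 11.1% lower, Rrn3 (0.18), Fbl (0.28), Utp3, Wdr75, Ltv1, Nop2 and Mak16 were called higher, and Myc (-0.37) and Npm1 were no longer called. The directions of Rrs1, Wdr12, Pes1, Heatr1, Gnl3, Utp18, Utp20, Nol6, Bop1, Emg1 and Polr1c, and their calls, were the same in each of the 3 scalings tried.

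**Figure D5:**
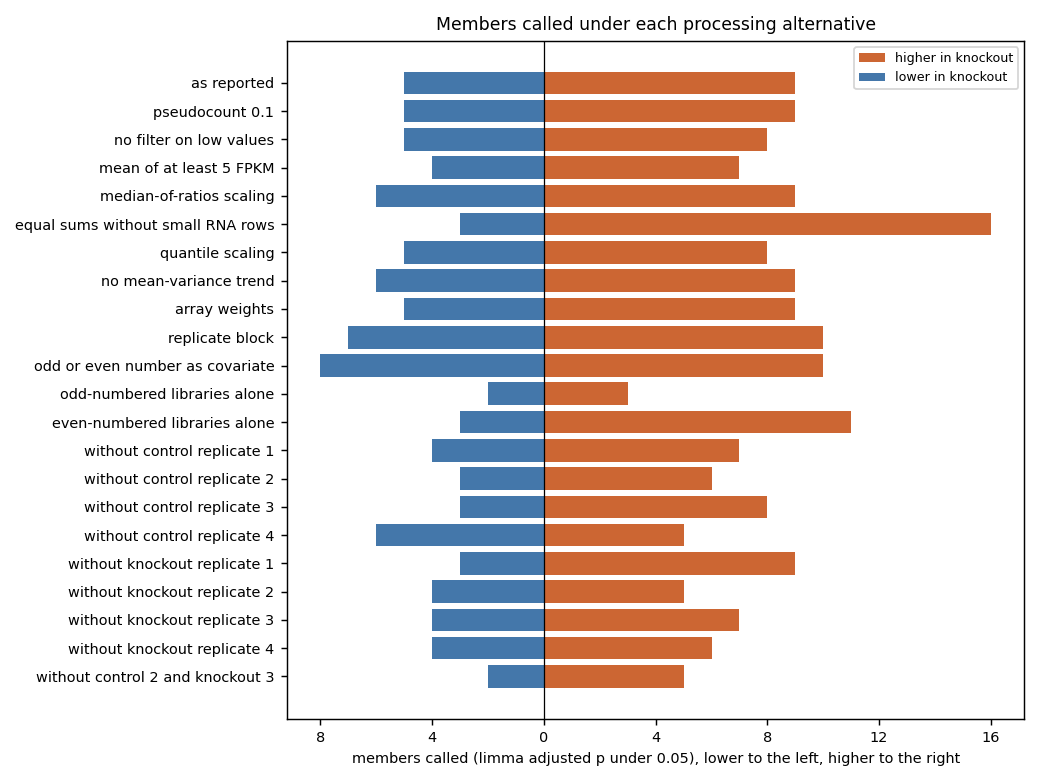
Number of the 49 members called higher (orange, to the right) and lower (blue, to the left) under each processing alternative, with the reported counts of 9 and 5 on top. The widest departures are the odd-numbered libraries alone (3 and 2) and scaling to equal sums (16 and 3).

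Libraries numbered 1 and 3 stood apart from those numbered 2 and 4 in both genotypes, although no label says what the numbers share. With genotype and odd or even number as terms in limma, 9.11% of all tested genes differed between even and odd numbers (5.38% higher and 3.73% lower in even numbers), and of the 49 members 1 did. That was Bysl, which encodes bystin, with 13.4 and 15.2 FPKM in controls 1 and 3, 11.3 and 9.68 FPKM in controls 2 and 4, as well as 11.9 and 12.6 FPKM in knockouts 1 and 3, and 10.5 and 9.67 FPKM in knockouts 2 and 4. Odd libraries were higher in both genotypes (even minus odd -0.33, adjusted p = 0.0321). With any single library left out other than control 2, 0 members passed this test in limma, and without control 2 there were 2. Markers of cell types moved with the same split. Of 9 macrophage markers 5 were lower in even numbers, and all 9 had an unadjusted p under 0.05 (sums of 319.84 and 363.31 FPKM in odd and 255.01 and 272.33 FPKM in even controls, 287.11 and 295.43 FPKM in odd and 214.8 and 224.11 FPKM in even knockouts). Of 8 adventitial fibroblast markers 4 were lower in even numbers (1361.4 and 1362.7 against 1020.4 and 1074.9 FPKM in controls, 873.91 and 1075.5 against 735.49 and 813.12 FPKM in knockouts). Of 10 smooth muscle genes 3 were higher in even numbers. Their sums were higher in even numbers in knockouts alone (12135 and 12923 FPKM in odd and 15177 and 16301 FPKM in even knockouts). In controls the sums were 18871 and 18958 FPKM in odd and 18591 and 18758 FPKM in even numbers. For an interaction of genotype with odd or even number, 7 of the 10 had an unadjusted p under 0.05 and 1 passed in limma. Of 8 endothelial markers 2 were higher in even numbers, and 1 of 2 lymphocyte and 1 of 4 Schwann cell and neuron markers were lower. The part of these cell type markers in the Bysl difference was not tested. Bysl also shares 361 exonic bases with Ccnd3 on the opposite strand, which had a mean of 51 FPKM. The part of Ccnd3 in the Bysl value was not tested either. The genotype difference itself did not pass the test of an interaction with odd or even number for any member (0 of 49 in limma, 6 at an unadjusted p under 0.05), where 1.62% of all tested genes passed. Within the odd-numbered libraries alone 3 members rose and 2 fell, with 14.5% and 12.8% of all tested genes, and within the even-numbered ones 11 rose and 3 fell, with 13.7% and 12.9%.

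In mm10 (GENCODE M21 gene bounds) the members that rose lie on chromosome 1, 9545408 to 9547455 (Rrs1), chromosome 1, 60069785 to 60098645 (Wdr12), chromosome 13, 12395027 to 12440289 (Heatr1), chromosome 10, 88746607 to 88826804 (Utp20), chromosome 11, 3963975 to 3980004 (Pes1), chromosome 11, 93859243 to 93885766 (Utp18), chromosome 4, 41114427 to 41124455 (Nol6), chromosome 14, 31012433 to 31019152 (Gnl3) and chromosome 11, 79932321 to 79962390 (Utp6). Those that fell lie on chromosome 15, 61985391 to 61990374 (Myc), chromosome 15, 76452989 to 76477277 (Bop1), chromosome 17, 46243920 to 46248054 (Polr1c), chromosome 6, 124704085 to 124712178 (Emg1) and chromosome 11, 33152287 to 33163206 (Npm1).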

How the data were processed

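The deposited table holds FPKM made by the authors, 1 column per library, for 23993 gene symbols. Per the submitters' processing notes the tools were TopHat2, Cufflinks and Cuffdiff and the build mm10, with no version or role stated. Annotation and strandedness, like any scaling between libraries, were not given in the sources used here. Read counts were not analysed here, so the absolute depth is unknown, and relative depth is the most frequent ratio to control 1 among low values.

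FPKM were used as deposited. Genes whose mean reached 1 FPKM were tested as log2(FPKM + 1) with limma 3.58.1 in R 4.3.3 (lmFit, eBayes with a mean-variance trend), genotype as the only term, and Benjamini-Hochberg adjustment over 12107 genes. The fitting steps were tested on simulated data. Groups come from the sample titles.

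Members and lists were chosen with earlier results of these data known, so they support nothing independently. The rule for named genes gave every library's value for called members and for Myc, Npm1, Ncl, Fbl, Polr1a, Polr1b, Rrn3 and Ubtf, and named 3 rises and 3 falls among the further pathway genes, Max, Tsc1, Fos, Egr1 and Jun. Alternatives covered the pseudocount, filter, scaling, variance model, replicate numbers and libraries used. The alternative without control 2 and knockout 3, and the window after the gene start, were chosen after seeing the data. Adgre1 and Hbb-bt of the marker lists did not match a symbol.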

Additional observations from a re-analysis of the deposited data

Results flagged for a closer look

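Within the groups of 4 libraries, 98 were looked at (49 members in each genotype), and 5 held a library farther from the others than Dixon's 95% limit allows. Chance alone gives about 1 in 20 such groups. Polr1a had 5.12 FPKM in control 3, against 4.48 to 4.53 FPKM in the other controls. Gnl3 had 16.3 FPKM in control 4, against 17.6 to 17.8 FPKM in the other controls. Ddx21 had 13.2 FPKM in control 4, against 16.6 to 17.1 FPKM in the other controls. Pes1 had 15.9 FPKM in control 1, against 16.8 to 16.9 FPKM in the other controls. Wdr75 had 9.92 FPKM in knockout 3, against 11.4 to 11.6 FPKM in the other knockouts.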

How the results depend on the processing

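Of the reported 9 rises and 5 falls among members, all 14 calls were kept with a pseudocount of 0.1, median-of-ratios scaling, no mean-variance trend, array weights, the replicate block, and a term for odd or even number. The same-numbered libraries of the genotypes had correlations of 0.0656, 0.138, 0.135 and 0.173 in their deviations, of which 1 is under 0.1, so the numbers were not taken as a pairing. Controls 2 and 4 correlated best with the knockout of their own number, control 1 with knockout 3 (0.141) and control 3 with knockout 1 (0.149). With the replicate block 10 members rose and 7 fell, and 2349 and 2122 of all genes; it added Nop58 (-0.23), Npm3 (-0.29) and Mak16 (0.18) to the calls, and Polr1d (-0.19) was lost among the further genes named. Leaving out each library in turn gave 5 to 9 rises and 3 to 6 falls among members, 4 to 14 rises and 5 to 8 falls among the further pathway genes (15 and 10 as reported), and 0 to 2 members that differed between even and odd numbers (1 as reported, and 0 without a filter, which leaves 13 of the 14 member calls). With 1 library left out, 13.9% to 15.5% of all tested genes rose and 12% to 13.3% fell. With scaling to equal sums 16 members rose and 3 fell, 27 and 4 further genes, and the members' median was 0.13. In that scaling 24.4% of all tested genes rose and 11.1% fell. With a term for odd or even number 8 members fell and 23 further genes rose. Calls also grew over all tested genes in that fit, to 21.8% higher and 19.4% lower. The odd-numbered libraries alone gave 3 and 2 members and 5 and 6 further genes, and the even-numbered ones 3 falls among members and 8 and 5 further genes. Without both control 2 and knockout 3, which also leaves fewer samples, 5 and 2 members, 5 and 4 further genes, and 1296 and 1106 of all genes were called. In that fit Heatr1 (0.34) and Polr1c (-0.36) were among the calls lost. No direction of a called member was reversed in any alternative. The E-box share of members was 7.5% in the upstream bases alone. The cause of these changes was not tested. With 4 libraries per group the smallest called member difference was -0.20 (Npm1), and the largest that was not called was -0.29 (Npm3, called in 3 alternatives).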

Other observations

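Pcna, the sliding clamp of DNA replication, measured 35.1, 39.2, 39.3 and 33.5 FPKM in controls 1 to 4 against 47.4, 49, 48.5 and 49.8 FPKM in knockouts 1 to 4. Mcm3, a subunit of the replicative helicase, had 3.6, 2.86, 3.85 and 3.57 FPKM in controls and 5.24, 5.42, 5.69 and 5 FPKM in knockouts. Both rose in limma (adjusted p = 0.002 and 0.00222), as did Mcm2 (0.31, adjusted p = 0.0328), while Mcm5 did not pass (adjusted p = 0.055). Mki67, a marker of cells in cycle, lay below the filter, at 0.289 to 0.44 FPKM in controls and 0.567 to 0.969 FPKM in knockouts. The Mcm2 call was lost without any single control (0.29 to 0.32) and without knockout 2 (0.27), knockout 3 (0.31) or knockout 4 (0.27), while those of Pcna and Mcm3 were kept.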
